A study of Mus musculus with 12 samples.

Results

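The 39 genes described here encode the liver's fatty acid oxidation machinery: the carnitine shuttle (5 genes), the enzymes of mitochondrial beta-oxidation (10), the electron transfer flavoproteins (3), peroxisomal beta-oxidation and peroxisome proliferation (8), acyl-CoA thioesterases (5), ketone and acetoacetyl-CoA enzymes (2), fatty acid uptake, binding, activation and storage (4), and a pair of fasting-responsive enzymes outside the pathway. They were chosen by gene symbol and role, and all 39 were found among the 48440 genes of the deposited tables. All 39 passed the filter on low counts that left 15244 genes for testing.

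Poly(A) RNA was sequenced from livers of male C57BL/6 animals on a chow diet, 8 weeks of age per the labels, in cycles of 12 h light and 12 h dark. Wild-type mice (WT) and mice with liver-specific overexpression of E4BP4 (TG) were compared at ZT2 and ZT14, where ZT counts the hours from lights on, with 3 libraries in each of the 4 groups. E4BP4 is the bZIP repressor encoded by Nfil3, and it binds the D-box elements also bound by the clock-controlled activators DBP, TEF and HLF. The labels give neither the promoter that drives the transgene nor the number of transgenic lines, and whether the libraries of a group came from different animals is not said there, so the p-values speak for the variation among these libraries, which may be technical.

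In liver, long-chain fatty acids are bound and activated in the cytosol, coupled to carnitine by CPT1A at the mitochondrial outer membrane, exchanged across the inner membrane and shortened by beta-oxidation, whose electrons pass through the electron transfer flavoproteins to the respiratory chain. Very long and branched chains are first shortened in peroxisomes, and the products leave as acyl-carnitines made by CROT and CRAT or as free acids released by thioesterases. Much of this machinery is under the nuclear receptor PPAR-alpha, a receptor for fatty acids that binds repeats of a half-site as a dimer with RXR, and it is engaged in fasting, when acetyl-CoA is turned into ketone bodies.

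Libraries held 16035121 to 23981021 total gene reads, of which the 39 genes took 0.911% to 1.16%. Reads of Nfil3 were 38.6 CPM (reads relative to each library's TMM-scaled total) in WT and 67.8 in TG at ZT2, and 31.1 and 78.6 at ZT14, with no overlap between genotypes at either time. On the log2 scale TG exceeded WT by 0.81 (SE 0.21, edgeR adjusted p = 0.359) at ZT2, by 1.34 (SE 0.21, adjusted p = 0.0306) at ZT14 and by 1.07 (SE 0.15, adjusted p = 0.00942) averaged over times. Hepatocyte markers summed to 59850 to 77147 CPM per library, against 215 to 282 for macrophage, 237 to 287 for endothelial, 115 to 198 for stellate, 36.0 to 95.2 for cholangiocyte, 238 to 547 for erythroid and 17.5 to 53.8 for adipocyte markers. Among the adipocyte markers Lep was at 0 in every library, and Adipoq and Plin1 reached at most 0.047 and 0.103 CPM. Adrb3 reached 44.3 CPM and Fabp4 10.1 CPM. At ZT2 the stellate markers summed to 115 to 147 CPM in WT and 144 to 198 CPM in TG. The part of these in the results was not tested. Replicate 2 of TG at ZT2 and replicate 3 of TG at ZT14 stood apart from the other 10 on the second principal component of the 2000 most variable genes (16.5% of variance), at -30.8 and -33.2 against 2.0 to 12.1, and results that rest on them are given with and without them. In whole liver, fewer cells of a type and less RNA per cell cannot be told apart.

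Promoters, taken as the 250 bases before each RefSeq start (GRCm38.p6), were found for 33 of the 39 genes. The D-box TTATGTAA was in 0 of the 33 promoters, on either strand, against 0.977% of the 27025 genes in the table, and its form TTACGTAA was also in 0, against 0.118%. The E-box CACGTG, the element of the core clock activators, was in 1 promoter (Acot4) against 6.86% of all. The nuclear receptor half-site AGGTCA was in 8 (Cpt1a, Acadvl, Acadm, Acot4, Acot12, Cd36, Fabp1 and Plin2), against 15.8%. The direct repeat AGGTCANAGGTCA was in 0 against 0.0407%, and the looser AGGNCANAGGNCA, which contains the former, was in 1 (Fabp1) against 0.4%. A match is a description of letters and shows no binding, and an absence covers only this window.

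Sequences are shown for Crot, the gene with the strongest evidence of a time difference, for Plin2 and Acot4, which hold matches and were called between times, and for Fabp1, which holds the repeat. Each runs 5′ to 3′ on the gene's strand, in the RefSeq GRCm38.p6 build, and leaves out bases that the deposited tables place inside the gene. Capitals mark the half-site (TGACCT is AGGTCA on the other strand), the E-box and the repeat. The Crot window is chr5:8997325-8997396 on the minus strand, Plin2 chr4:86670061-86670309 on the minus strand, Acot4 chr12:84038129-84038378 on the plus strand and Fabp1 chr6:71199629-71199826 on the plus strand.
Crot: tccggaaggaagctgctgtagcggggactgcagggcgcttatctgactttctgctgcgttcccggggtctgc
Plin2: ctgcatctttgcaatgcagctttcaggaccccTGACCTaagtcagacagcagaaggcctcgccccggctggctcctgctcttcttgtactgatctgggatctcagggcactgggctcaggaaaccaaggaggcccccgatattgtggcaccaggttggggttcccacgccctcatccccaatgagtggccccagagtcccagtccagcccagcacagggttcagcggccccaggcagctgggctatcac
Acot4: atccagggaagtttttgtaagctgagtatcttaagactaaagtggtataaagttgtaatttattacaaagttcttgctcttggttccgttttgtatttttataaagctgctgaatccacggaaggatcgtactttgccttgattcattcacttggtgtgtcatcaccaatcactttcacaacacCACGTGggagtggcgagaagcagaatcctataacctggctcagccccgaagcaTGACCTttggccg
Fabp1: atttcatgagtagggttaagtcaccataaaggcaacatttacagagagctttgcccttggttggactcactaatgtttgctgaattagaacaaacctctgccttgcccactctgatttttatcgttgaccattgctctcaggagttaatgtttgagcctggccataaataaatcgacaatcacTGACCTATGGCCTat

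Between ZT2 and ZT14, 7 of the 39 genes were called in WT (17.9%), 4 higher at ZT14 (Crat, Acaa1a, Acot3 and Acot4) and 3 lower (Crot, Etfdh and Plin2). Over all 15244 genes, 9.17% were called, 4.85% higher and 4.32% lower. In TG, 8 of 39 were called (20.5%), 3 higher (Cpt1a, Acaa1a and Acot3) and 5 lower (Crot, Etfdh, Acox2, Plin2 and Pdk4), against 12.2% of all genes, 6.7% higher and 5.52% lower. The median log2 fold change of the 39 genes was 0.04 in WT and 0.05 in TG, against 0.01 in both for all genes. The called genes lay in the carnitine shuttle, the peroxisome, the thioesterases, the lipid droplet and the flavoproteins, with Pdk4 beside them. None of the 10 mitochondrial beta-oxidation enzymes was among them, but with 10 genes a count of 0 is near the shares over all genes. Across the 39 genes 5 were called in both genotypes, in the same direction, 2 in WT alone, 3 in TG alone and 29 in neither. No difference between the genotypes in these time effects passed the test of the interaction in edgeR (0 of 39, smallest adjusted p = 0.675), where 0.00656% of all genes were called. At an unadjusted p below 0.05 there were 5 of the 39, against 5.98% of all genes, and DESeq2 called 1, against 0.144%.

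**Figure D1:**
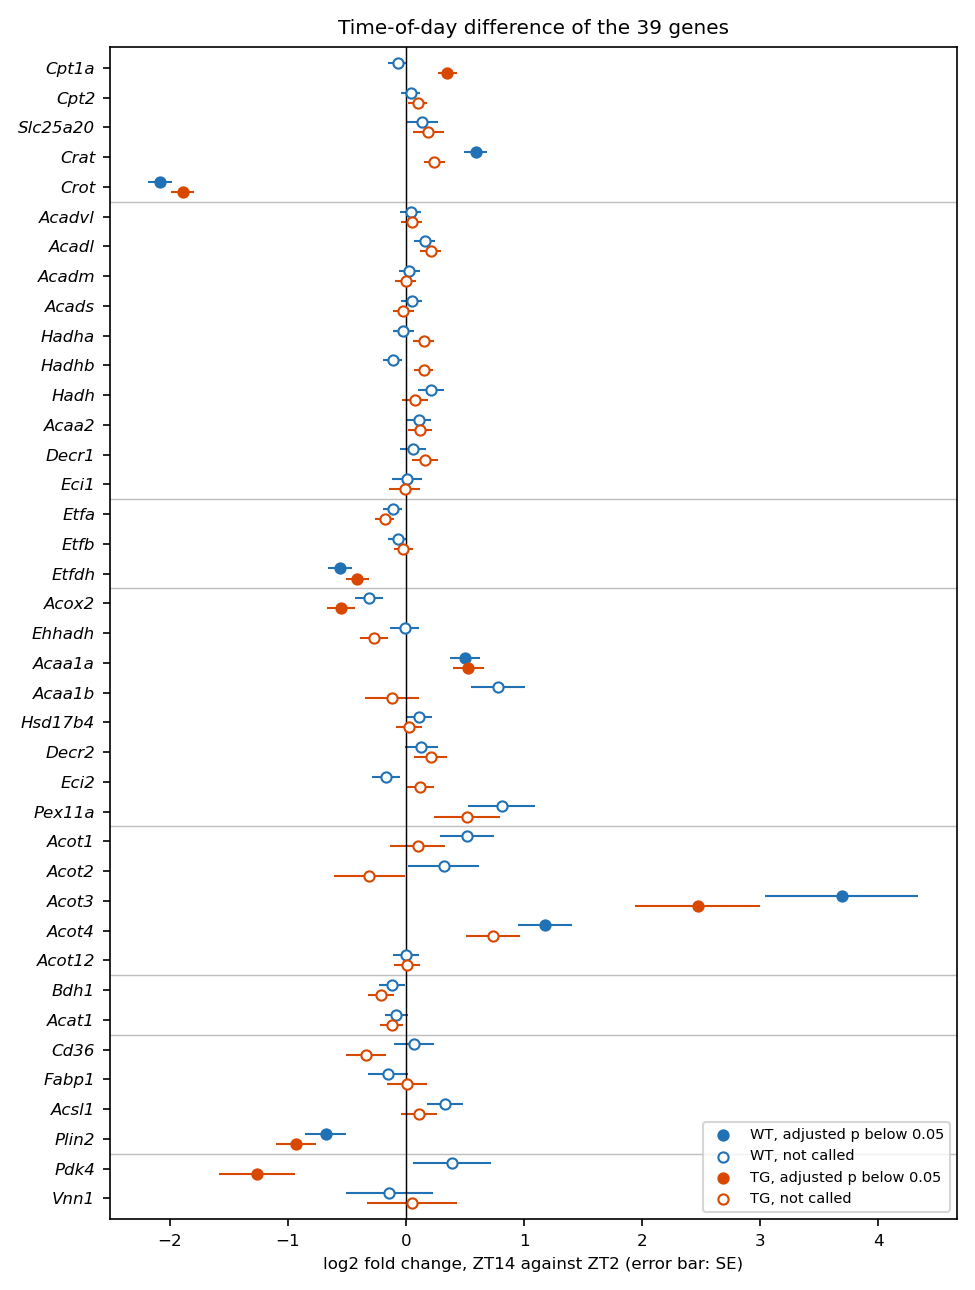
Log2 fold change at ZT14 against ZT2 for the 39 genes (x axis), in WT (blue) and TG (orange), with error bars of 1 SE. Filled points have an edgeR adjusted p below 0.05, and lines separate the roles. Crot lies farthest to the left at -2.08 and -1.89 and Acot3 farthest to the right at 3.69 and 2.47, while the 10 beta-oxidation enzymes from Acadvl to Eci1 lie between -0.11 and 0.21.

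Crot (ENSMUSG00000003623, chromosome 5, 8966033 to 8997324, minus strand in GENCODE M21) encodes the peroxisomal carnitine octanoyltransferase, which hands medium-chain products of peroxisomal oxidation to carnitine. It read 763, 809 and 802 CPM in WT at ZT2 and 167, 200 and 195 CPM at ZT14. The TG livers gave 665, 625 and 626 CPM at ZT2 and 174, 187 and 154 CPM at ZT14. Every ZT2 library stood at more than 3 times every ZT14 library of either genotype. Crot was 4.22-fold lower at ZT14 in WT (log2 fold change -2.08, SE 0.10, edgeR adjusted p = 2.73e-07) and 3.72-fold lower in TG (-1.89, SE 0.10, adjusted p = 5.83e-07), and both calls held with any library left out. On the per-length scale Crot ranged from 64.2 to 332 TPM, the deposited unit that allows for transcript length and depth. All TG libraries at ZT2 lay below all WT ones, with a log2 difference of -0.31 (SE 0.10) that was not called (edgeR adjusted p = 0.526).

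Crat (ENSMUSG00000026853, chromosome 2, 30400471 to 30415813) encodes carnitine acetyltransferase, which moves acetyl and other short acyl groups between CoA and carnitine. It read 21.3, 25.3 and 25.3 CPM in WT at ZT2 and 37.6, 35.1 and 35.2 CPM at ZT14, with no overlap, a 1.5-fold rise (log2 0.59, SE 0.10, edgeR adjusted p = 0.00215). In TG it read 32.7, 35.0 and 38.8 CPM at ZT2 and 45.3, 41.5 and 39 CPM at ZT14, again without overlap but not called (log2 0.24, SE 0.09, adjusted p = 0.12). TG libraries at ZT2 thus lay near the WT libraries at ZT14. Crat and Crot, whose enzymes do like chemistry on chains of different length, had time differences of opposite sign in both genotypes, that of Crat in TG not being called. The 3′ end of Crat overlaps that of Dolpp1, on the other strand, by 59 bases. Dolpp1 itself differed by 0.11 on the log2 scale in WT (SE 0.12, adjusted p = 0.671).

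Cpt1a encodes the liver form of carnitine palmitoyltransferase 1, the regulated entry step of mitochondrial oxidation. It read 262, 275 and 297 CPM in WT at ZT2 and 273, 264 and 257 CPM at ZT14, with overlapping libraries (log2 -0.07, SE 0.08, edgeR adjusted p = 0.653). The TG libraries held 246, 243 and 247 CPM at ZT2 and 332, 300 and 305 CPM at ZT14, a 1.27-fold rise (log2 0.35, SE 0.08, adjusted p = 0.0122). Thus TG lay below WT at ZT2 and above it at ZT14, with no overlap at either time. Neither genotype difference was called (log2 -0.18, adjusted p = 0.639, and 0.24, adjusted p = 0.592), nor was the interaction in edgeR (log2 0.42, SE 0.11, adjusted p = 0.675), although DESeq2 gave the interaction an adjusted p of 0.0324. The TG call was lost without TG at ZT2 replicate 2 (adjusted p = 0.0524), without both libraries that stood apart (0.0563) and when the 6 TG libraries were fitted alone (0.0567), where 9.23% of all genes were called. Cpt2 and Slc25a20, the inner-membrane transferase and the carnitine carrier that act after it, had log2 fold changes of 0.04 and 0.14 in WT and 0.10 and 0.19 in TG, with none called.

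**Figure D2:**
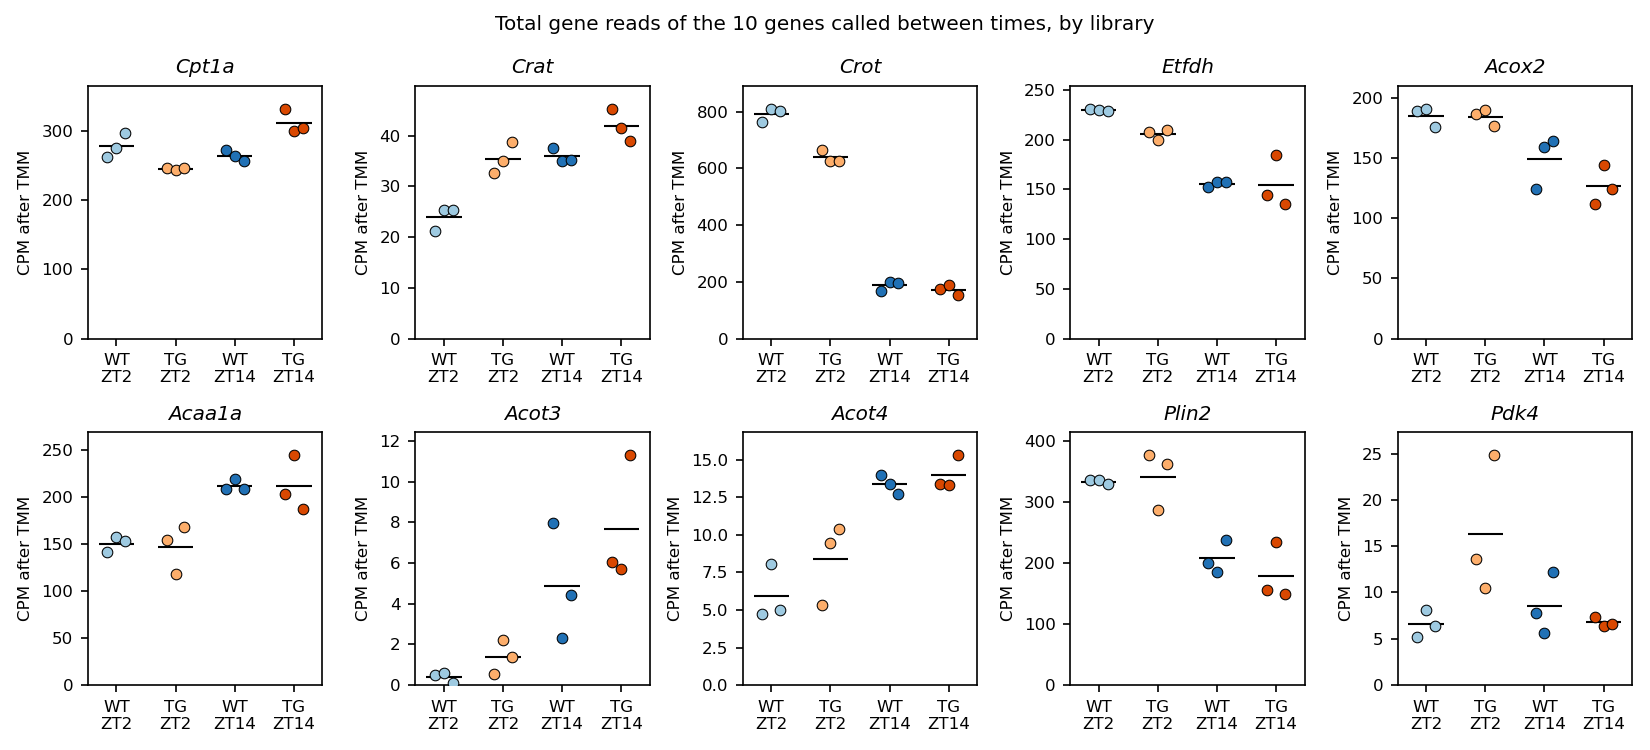
Total gene reads (y axis, CPM after TMM, from 0) in each of the 12 libraries for the 10 genes called between times in WT or TG. Points are libraries, bars are means of 3, and the group stands on the x axis. Crot falls from between 625 and 809 CPM at ZT2 to between 154 and 200 CPM at ZT14, and at ZT2 the 3 TG libraries lie above the 3 WT libraries in Pdk4 and Crat.

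The 10 mitochondrial beta-oxidation enzymes comprise the acyl-CoA dehydrogenases of very long, long, medium and short chains (Acadvl, Acadl, Acadm, Acads), both subunits of the trifunctional protein (Hadha, Hadhb), the short-chain 3-hydroxyacyl-CoA dehydrogenase (Hadh), the thiolase Acaa2 and the auxiliary enzymes for unsaturated chains (Decr1, Eci1). None was called between times or genotypes in total reads, which for 10 genes is near the shares over all genes. Their log2 fold changes between times ran from -0.11 (Hadhb) to 0.21 (Hadh) in WT and from -0.02 (Acads) to 0.21 (Acadl) in TG. Over the 10 genes the 95% intervals reached from -0.29 to 0.46 in WT, from -0.30 to 0.41 in TG, and from -0.24 to 0.21 for TG against WT averaged over times, so differences larger than these bounds lie outside the intervals. Hadhb, uncertain because 57.0% of its reads were unique, read 154, 152 and 143 CPM in WT and 163, 192 and 170 CPM in TG at ZT14, without overlap, and was not called (log2 0.23, SE 0.08, edgeR adjusted p = 0.618). Acaa2 stood highest of the 10 per length, at 955 to 1258 TPM over the 12 libraries.

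Among the electron acceptors, Etfdh differed between times in total reads, while both subunits of the flavoprotein ETF did not pass the test. Etfdh encodes the membrane dehydrogenase that passes electrons from ETF to ubiquinone. Etfdh read 231, 230 and 229 CPM in WT at ZT2 and 152, 157 and 157 CPM at ZT14. In TG it read 208, 200 and 210 CPM at ZT2 and 144, 185 and 135 CPM at ZT14, with groups that do not overlap between times in either genotype. It was 1.48-fold lower at ZT14 in WT (log2 -0.56, SE 0.10, edgeR adjusted p = 0.00443) and 1.33-fold lower in TG (-0.41, SE 0.10, adjusted p = 0.02). The TG call was lost without replicate 1 or 3 of TG at either time (adjusted p = 0.055 to 0.0726), without both libraries that stood apart (0.0748) and in the fit of the 6 TG libraries (0.0865). Etfa had log2 fold changes of -0.11 in WT and -0.18 in TG, and Etfb of -0.07 and -0.02, but only 19.5% of the reads of Etfb mapped uniquely, so its values are uncertain.

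The peroxisomal genes were mixed. Acaa1a, a peroxisomal 3-ketoacyl-CoA thiolase, read 141, 157 and 153 CPM in WT at ZT2 and 208, 219 and 208 CPM at ZT14, and 154, 118 and 168 CPM against 203, 244 and 187 CPM in TG. It was 1.41-fold higher at ZT14 in WT (log2 0.50, SE 0.13, edgeR adjusted p = 0.0297) and 1.44-fold higher in TG (0.53, SE 0.13, adjusted p = 0.0187). The WT call was lost when any of the 6 WT libraries was left out (adjusted p = 0.0563 to 0.115), and the TG call without replicate 2 of TG at either time (0.0693 and 0.0741) and in the fit of the 6 TG libraries (0.0777). Its reads were 63.2% unique, it shares sequence with its neighbour Acaa1b, and the genes that overlap it, Slc22a14 and Myd88, held 19.3% as many reads, so its values are uncertain.

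Acaa1b, the thiolase copy induced by peroxisome proliferators, stood second of the 39 genes per length, at 700 to 1673 TPM. Its reads were 84.1% unique, so its values are uncertain too. It read 854, 1089 and 677 CPM in WT at ZT2 and 1310, 1585 and 1592 CPM at ZT14, without overlap and not called (log2 0.78, SE 0.23, edgeR adjusted p = 0.0597). The WT difference was called with scaling by library size, in DESeq2, with no filter beyond 1 read and in unique reads. It was also called in intron reads, with the WT libraries alone and without both libraries that stood apart. The TG libraries were at 953, 850 and 1327 CPM at ZT2 and 820, 1316 and 752 CPM at ZT14, with overlap (log2 -0.12, SE 0.23, adjusted p = 0.801). The interaction was -0.89 (SE 0.33, adjusted p = 0.768).

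Acox2, an acyl-CoA oxidase that acts on bile acid intermediates, read 187, 190 and 177 CPM in TG at ZT2 and 112, 144 and 124 CPM at ZT14, 1.46-fold lower (log2 -0.55, SE 0.12, edgeR adjusted p = 0.00933, and 0.0584 without both libraries that stood apart). In WT it read 189, 191 and 176 CPM against 124, 159 and 164 CPM, also without overlap, and was not called (-0.31, SE 0.12, adjusted p = 0.117). Ehhadh, the peroxisomal bifunctional enzyme, read 214, 291 and 242 CPM in WT and 178, 216 and 200 CPM in TG at ZT14, overlapping and not called (log2 -0.33, SE 0.12, adjusted p = 0.627). Pex11a, a membrane protein of peroxisome division, read 49.5, 55.1 and 46.5 CPM in WT at ZT2 and 97.5, 74.6 and 93.3 CPM at ZT14, without overlap (log2 0.81, SE 0.28, adjusted p = 0.0905). Its WT difference was called in DESeq2, with no filter beyond 1 read, with the WT libraries alone and without both libraries that stood apart. In TG it read 54.2, 30.2 and 55.7 CPM at ZT2 and 68.8, 93.0 and 39 CPM at ZT14. The TG groups overlapped through replicate 3 at ZT14 alone, while replicate 2 at ZT2 was the lowest of all 12 libraries. Hsd17b4, Decr2 and Eci2 were not called in any contrast of total reads.

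The acyl-CoA thioesterases, which release free fatty acids from CoA, lie in part in a cluster on chromosome 12, in the order Acot2, Acot1, Acot4 and Acot3 between positions 83987861 and 84059565 of the deposited coordinates. Acot4, a peroxisomal form, read 4.75, 8.04 and 5.02 CPM in WT at ZT2 and 14, 13.4 and 12.7 CPM at ZT14, 2.27-fold higher (log2 1.18, SE 0.23, edgeR adjusted p = 0.00698). The TG values were 5.31, 9.45 and 10.4 CPM against 13.4, 13.3 and 15.3 CPM, without overlap (0.74, SE 0.23, adjusted p = 0.0508). The TG difference was called in DESeq2, in voom, with no filter beyond 1 read and with a replicate block. The ZT14 levels of the genotypes lay side by side. Of the 33 promoters that were found, that of Acot4 is the 1 that holds an E-box, shown above, against 6.86% of all genes. A link between the E-box and the time difference was not tested.

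Acot3, the neighbouring peroxisomal form, was among the lowest of the 39 per length, at 0.091 to 10.7 TPM. It read 0.470, 0.570 and 0.103 CPM in WT at ZT2 and 7.96, 2.31 and 4.42 CPM at ZT14, and 0.519, 2.20 and 1.39 CPM against 6.05, 5.70 and 11.3 CPM in TG. Each ZT14 library lay above every ZT2 library. On the log2 scale ZT14 exceeded ZT2 by 3.69 (SE 0.65, edgeR adjusted p = 0.00355) in WT and 2.47 (SE 0.53, adjusted p = 0.0101) in TG, with wide 95% intervals of 2.28 to 5.09 and 1.32 to 3.63.

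An antisense gene, 4732463B04Rik, overlaps Acot4 by 5255 bases and Acot3 by 1664 bases on the other strand, and held 240% and 661% as many reads as these. It read 10.3, 14.6 and 10.2 CPM in WT at ZT2 and 40.2, 28.5 and 30.9 CPM at ZT14, and was also called, in WT (log2 1.51, SE 0.20, edgeR adjusted p = 0.00054) and in TG (1.01, SE 0.19, adjusted p = 0.00509). Whether counting used strand is not given in the sources used here, so the reads of the sense and antisense genes cannot be told apart. Of the reads of Acot4, 61.5% were unique, against 95.5% of those of Acot3. Acot1 and Acot2 had log2 fold changes of 0.52 and 0.32 in WT and 0.10 and -0.31 in TG, and Acot12, a cytosolic acetyl-CoA hydrolase on chromosome 13, of 0.00 and 0.01, with none called. With 83.7% and 89.9% of their reads unique, Acot1 and Acot2 are uncertain as well, as is Acot4.

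The 2 ketone and acetoacetyl-CoA enzymes did not pass the test in any contrast. Bdh1, which interconverts acetoacetate and beta-hydroxybutyrate, ranged from 133 to 189 CPM over the 12 libraries, and Acat1, the mitochondrial acetoacetyl-CoA thiolase, from 250 to 327 CPM. Their log2 fold changes between times lay between -0.21 and -0.08, with 95% intervals inside -0.46 to 0.13 in both genotypes.

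Of the genes of fatty acid handling, Plin2, the protein that coats hepatic lipid droplets, was lower at ZT14 in both genotypes. It read 335, 336 and 329 CPM in WT at ZT2 and 200, 185 and 237 CPM at ZT14, 1.61-fold lower (log2 -0.68, SE 0.17, edgeR adjusted p = 0.0219). In TG it read 376, 286 and 362 CPM against 155, 234 and 149 CPM, 1.91-fold lower (-0.93, SE 0.17, adjusted p = 0.00358). The WT call was lost without any of the 3 WT libraries at ZT2 or without WT at ZT14 replicate 1 or 2 (adjusted p = 0.0518 to 0.0876), and the TG call held with any library left out. Fabp1, the liver fatty acid binding protein, stood first of the 39 per length, at 6074 to 9405 TPM. Its mean was 64.3 times the median of the 39 genes. Fabp1, Acsl1, which activates long-chain fatty acids, and Cd36, a fatty acid translocase, were not called in any contrast.

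Pdk4, the kinase that shuts off pyruvate dehydrogenase when fat is burned, read 5.17, 8.10 and 6.36 CPM in WT and 13.6, 10.5 and 24.8 CPM in TG at ZT2, without overlap. At ZT14 it read 7.82, 5.59 and 12.2 CPM in WT and 7.34, 6.41 and 6.64 CPM in TG, with overlap. All 3 TG libraries at ZT2 lay above every TG library at ZT14. In TG it was 2.40-fold lower at ZT14 (log2 -1.26, SE 0.32, edgeR adjusted p = 0.0221), a call lost without TG at ZT2 replicate 3 or any of the 3 TG libraries at ZT14 (adjusted p = 0.055 to 0.1). In WT its time difference was 0.39 (SE 0.33, adjusted p = 0.53). The genotype difference at ZT2 was 1.33 (SE 0.32, edgeR adjusted p = 0.343, DESeq2 0.0139), and the interaction -1.66 (SE 0.45, edgeR adjusted p = 0.687). Vnn1, a pantetheinase and PPAR-alpha target, was not called in any contrast.

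Between genotypes, 0 of the 39 genes were called in edgeR at ZT2 (smallest adjusted p = 0.0667), against 0.0722% of all genes. At an unadjusted p below 0.05 there were 8 of the 39, against 7.56% of all genes. DESeq2 called 2, Crat and Pdk4, against 0.367% of all genes in DESeq2, and edgeR with no filter beyond 1 read called the same 2, against 0.162%. In simulated data, whose spread was drawn from edgeR estimates, DESeq2 exceeded the nominal share of false calls. At ZT14, 0 were called in edgeR (smallest adjusted p = 0.592), against 0.0853%, and 5 had an unadjusted p below 0.05, against 6.91% of all genes. The medians over the 39 genes were -0.03 and -0.04, against -0.00 and 0.01 over all genes. Averaged over both times 1 was called, Crat, which was higher in TG, against 0.144% of all genes called and 0.112% called higher. Its values in TG exceeded those in WT without overlap at both times, by 0.57 on the log2 scale (SE 0.10, edgeR adjusted p = 0.0667, DESeq2 0.000407) at ZT2 and 0.22 (SE 0.09, edgeR adjusted p = 0.683) at ZT14. The averaged difference was 0.40 (SE 0.07, edgeR adjusted p = 0.042). This call was lost in 11 of the 12 fits that left out 1 library, all but that without TG at ZT2 replicate 1 (adjusted p = 0.05 to 0.16), and without both libraries that stood apart (0.108).

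Exon and intron reads were also fitted apart, since the tables give both. Introns held a median of 3.87% of a gene's reads over the 39 genes. In intron reads, 3 of 37 tested genes were called between times in WT (Acaa1b and Crat higher, Eci2 lower) against 1.93% of all genes, and 5 of 37 in TG (Crat higher, and Acadm, Crot, Eci2 and Etfa lower) against 5.64%. Intron reads in poly(A) RNA stem in part from unspliced transcripts, and in part from other sources such as retained introns, which these counts do not separate.

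Crot introns read 26.3, 19.2 and 41.8 CPM in WT at ZT2 and 15.1, 22.2 and 18.6 CPM at ZT14, with overlap (log2 -0.72, SE 0.22, edgeR adjusted p = 0.121). In TG they read 36.5, 43.8 and 38.3 CPM against 13.3, 14.6 and 15.2 CPM (-1.49, SE 0.23, adjusted p = 0.00283). In exon reads alone the log2 fold changes were -2.17 in WT and -1.94 in TG (both SE 0.10), so the exon difference was the larger in each genotype, although the difference between exon and intron reads was not tested. At ZT2 the TG mean was lower than the WT mean in exon reads (599 ± 25.3 against 762 ± 26.8 CPM, SD, n = 3) and higher in intron reads (39.5 ± 3.80 against 29.1 ± 11.5 CPM), with the latter overlapping.

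Crat showed the reverse order of size. Its introns read 0.894, 1.27 and 1.03 CPM in WT at ZT2 and 3.77, 2.69 and 3 CPM at ZT14, without overlap (log2 1.51, SE 0.23, edgeR adjusted p = 0.00365). In TG they read 1.73, 1.98 and 2.51 CPM against 3.58, 4.39 and 4.53 CPM (0.98, SE 0.21, adjusted p = 0.0159). Exon reads of Crat differed by 0.52 (SE 0.10) in WT and 0.16 (SE 0.10) in TG. In both genotypes the log2 fold change was larger in intron reads, and the difference in CPM larger in exon reads, and neither comparison was tested.

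Eci2, an enoyl-CoA isomerase found in peroxisomes and mitochondria, had introns at 31.8, 44.9 and 50.2 CPM in WT at ZT2 and 13.7, 26.7 and 23.1 CPM at ZT14 (log2 -1.07, SE 0.21, edgeR adjusted p = 0.0156). In TG they were at 33.4, 31.3 and 35.1 CPM against 15.5, 18.0 and 18.6 CPM (-0.97, SE 0.21, adjusted p = 0.016). No library of either ZT14 group reached a ZT2 library. Its exon reads had log2 fold changes of 0.03 (SE 0.13) and 0.33 (SE 0.13), not called, and in total reads the time difference of Eci2 was -0.17 and 0.12. In Cpt1a the TG exon reads were higher at ZT14 (log2 0.40, SE 0.07, adjusted p = 0.00452), while the intron reads stood at -0.84 (SE 0.25, adjusted p = 0.0643). The 77.1% unique reads of Eci2 leave its values uncertain.

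**Figure D3:**
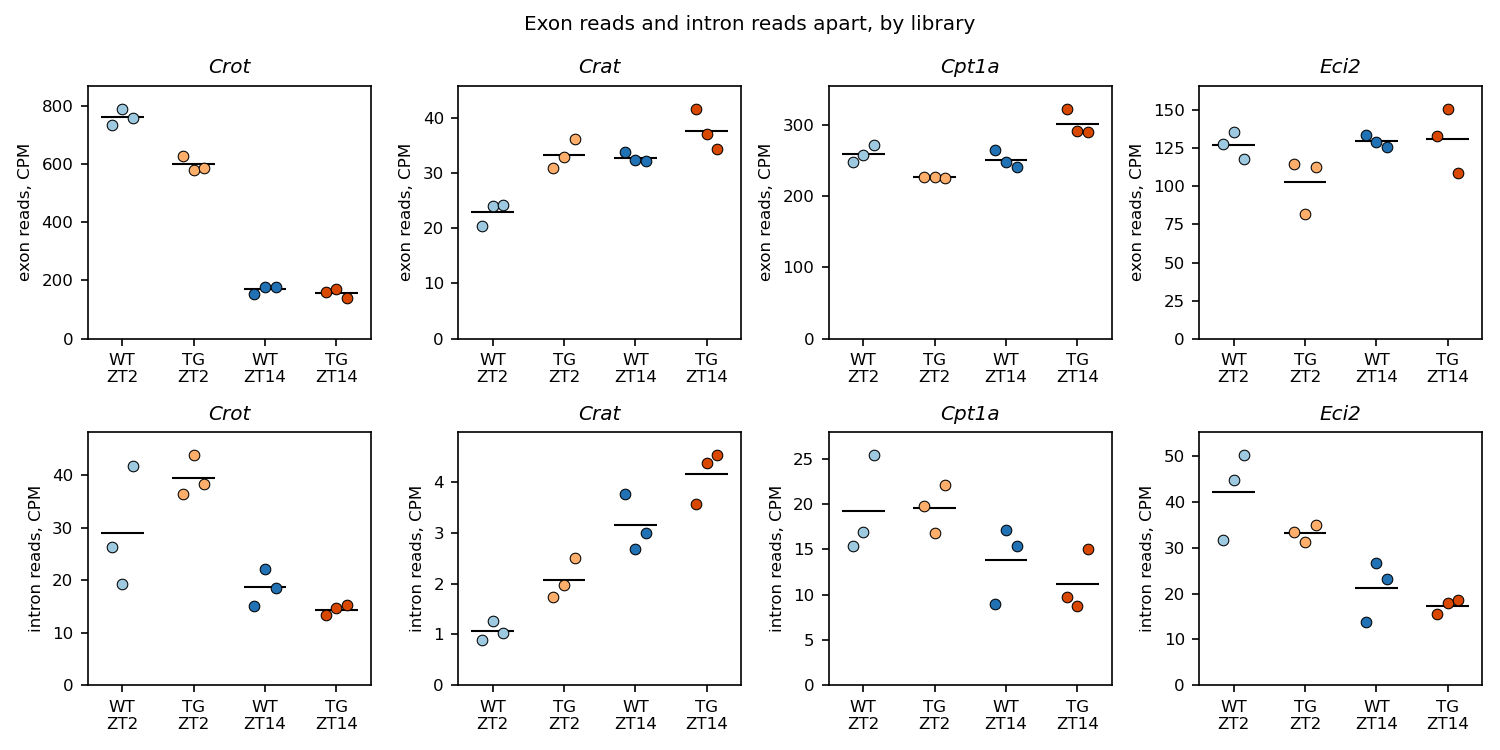
Exon reads (upper row) and intron reads (lower row) of 4 genes in each library, in CPM scaled with the TMM factors of total reads, with bars at the means of 3 libraries. Crot falls in exon reads in both genotypes, Crat stands higher at ZT14 in both kinds of reads, with a larger log2 fold change in intron reads (1.51 and 0.98) than in exon reads (0.52 and 0.16) and a smaller difference in CPM, and Eci2 differs between times in intron reads (13.7 to 26.7 CPM at ZT14 against 31.3 to 50.2 CPM at ZT2) while its exon reads overlap.

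Replicate 2 of TG at ZT2 and replicate 3 of TG at ZT14 were low in many of the 39 genes. In 16 of 39 (41.0%) each of them was the lowest of the 6 libraries of its time, against 8.32% of the 15244 genes, and in 2 (5.13%) each was the highest, against 8.34%. The 16 were Slc25a20, Crot, Acadvl, Acads, Acaa2, Decr1, Etfdh, Acaa1a, Hsd17b4, Decr2, Eci2, Pex11a, Acot12, Acsl1, Plin2 and Vnn1, and the 2 were Acot3 and Cd36. Furthest below were Vnn1, at 0.402 and 0.420 of the mean of the other TG libraries of the time, and Pex11a, at 0.550 and 0.482. Slc25a20, Decr2 and Acsl1 stood at 0.749 to 0.789, and Cd36 at 1.32 and 1.48. The median deviation of the 39 genes from the WT mean of the same time was -0.13 and -0.20 on the log2 scale in these libraries, and 31 of the 39 lay below that mean in TG at ZT14 replicate 3, as they did in TG at ZT14 replicate 1, where the median was -0.12.

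In the same 2 libraries a list of 13 female-biased liver genes summed to 37.2 and 33.0 CPM, against 4.81 to 8.15 CPM in the other 10, and a list of 12 male-biased liver genes to 6951 and 5735 CPM, against 8076 to 13105 CPM. All samples are labelled male, and both lists were written after the first results were seen. The sums of hepatocyte markers were highest of their time in these libraries, at 74481 and 77147 CPM. Alb was highest too (56172 and 56623 CPM), while Hnf4a was not (576 and 662 CPM). The sums of erythroid markers were also highest, at 547 CPM against 262 to 350 at ZT2 and at 415 CPM against 238 to 355 at ZT14. Among these Alas2 was the lowest of its time in TG at ZT14 replicate 3, at 83.2 CPM. Adipocyte markers were highest of their time in both as well, at 53.8 and 28.8 CPM. Macrophage, endothelial and stellate markers were highest of their time at ZT14 alone, at 282, 261 and 183 CPM. For stellate markers TG at ZT14 replicate 1 was close, at 181 CPM. Cholangiocyte markers were highest in neither. The part of these differences in the results of the 39 genes was not tested. Without both libraries, 5 of the 39 genes were called between times in TG (Acaa1a, Acot3, Crot, Pdk4 and Plin2), against 7.47% of all genes in that fit. The calls of Cpt1a, Etfdh and Acox2 were lost with 2 fewer libraries, at log2 fold changes of 0.34, -0.36 and -0.53 that lay near those with all 12.

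**Figure D4:**
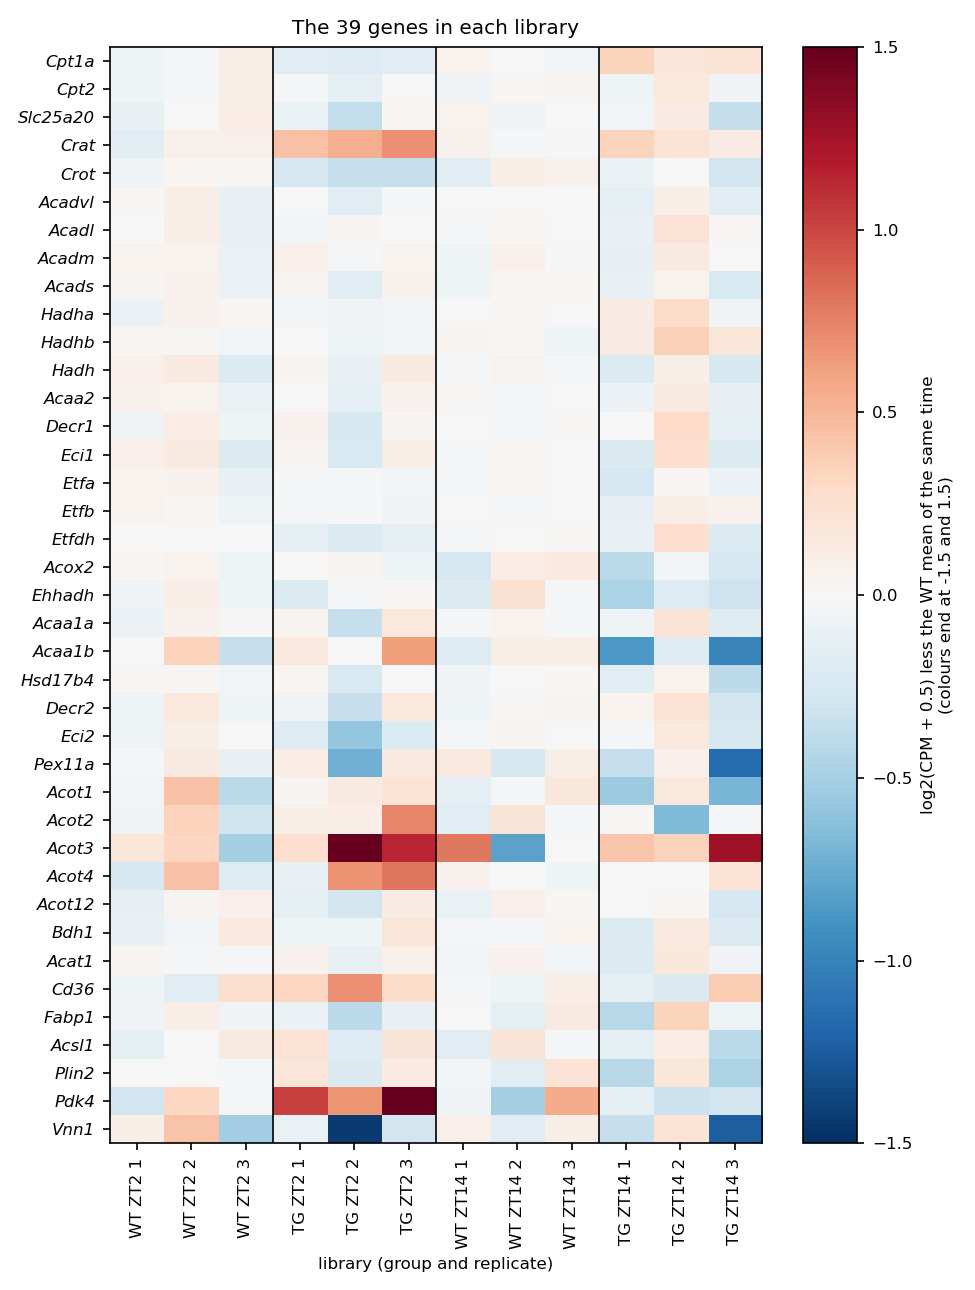
Each of the 39 genes (rows, in order of role) in each of the 12 libraries (columns) as log2(CPM + 0.5) less the WT mean of the same time, with red above and blue below that mean and colours ending at -1.5 and 1.5. Replicate 2 of TG at ZT2 and replicate 3 of TG at ZT14 are blue over many rows, most deeply in Pex11a and Vnn1, and Pdk4 and Crat are red in all 3 TG libraries at ZT2.

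The other genes of the pathway were read from 5 lists of 88 genes, of which 85 were tested: peroxisome biogenesis, other peroxisomal enzymes and transporters, other mitochondrial fatty acid and propionate enzymes, other ketone body genes, and lipid droplet, lipolysis and other PPAR-alpha targets. Between times 6 were higher and 2 lower at ZT14 in WT, and 7 higher and 4 lower in TG, with medians of 0.02 and -0.00. These are 9.41% and 12.9% of the 85, near the 9.17% and 12.2% over all genes. None was called between genotypes in edgeR. The 15 peroxisome biogenesis genes had 0 called in WT and 1 in TG, which is no more than the shares over all genes, and the 1 was Pex26, an anchor of the import machinery (log2 1.1, SE 0.24, adjusted p = 0.0113, and 0.70, SE 0.24, adjusted p = 0.0917 in WT).

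Among other lipid droplet coat genes, Plin4 and Plin5 were higher at ZT14, opposite to Plin2. Plin5, which ties droplets to mitochondria, rose from 33.0 to 47.1 CPM in WT (log2 0.51, SE 0.11, edgeR adjusted p = 0.0133) and from 30.7 to 43.5 CPM in TG (0.50, SE 0.11, adjusted p = 0.0128). Plin4 rose from 4.57 to 10.3 CPM in WT (1.19, SE 0.28, adjusted p = 0.019) and from 2.74 to 8.5 CPM in TG (1.63, SE 0.29, adjusted p = 0.00383). Aacs, which uses acetoacetate for lipid synthesis in the cytosol, rose from 40.4 to 205 CPM in WT (2.34, SE 0.46, adjusted p = 0.00717) and from 52.0 to 206 CPM in TG (1.98, SE 0.45, adjusted p = 0.0142).

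Acacb, the acetyl-CoA carboxylase whose product malonyl-CoA inhibits CPT1, rose from 71.0 to 190 CPM in WT (log2 1.42, SE 0.31, edgeR adjusted p = 0.012), and read 83.6 and 122 CPM in TG (0.55, SE 0.30, adjusted p = 0.283). Its interaction was not called (-0.88, SE 0.43, adjusted p = 0.847). Acsl3, of the same list, rose from 31.7 to 63.1 CPM in WT (0.99, SE 0.16, adjusted p = 0.00244). In TG Acsl3 read 47.4 and 62.1 CPM (0.39, SE 0.16, adjusted p = 0.146). At ZT2 its TG libraries lay above the WT ones without overlap, and this was not called (0.58, SE 0.16, adjusted p = 0.456). Acsl4, an acyl-CoA synthetase with a preference for arachidonate, rose in both genotypes (0.57, SE 0.14, adjusted p = 0.0259, and 0.66, SE 0.14, adjusted p = 0.0105). Amacr, the racemase that readies branched chains for peroxisomal oxidation, fell in both (-0.40, SE 0.07, adjusted p = 0.00475, and -0.43, SE 0.07, adjusted p = 0.0029), as did Cyp4a32, a fatty acid omega-hydroxylase with close copies in its family that make its counts uncertain (-1.47, SE 0.39, adjusted p = 0.0323, and -2.15, SE 0.39, adjusted p = 0.00371).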

How the data were processed

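Read counts, TPM and RPKM for 48440 genes in each of the 12 liver libraries were deposited by the authors, 1 table a library, per the file headers. Counts cover whole genes, exons and introns, and whole-gene counts equal the sum of the exon and intron counts in every row. Aligner, counter and strand setting were not given in the sources used here, while builds mm10 and GRCm38 come from the submitters' processing notes. Multiply mapped reads are included in the counts, so genes with close copies are named as uncertain. Input was 850 ng of total RNA, per the labels' protocols.

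The tests used edgeR 4.0.16 (R 4.3.3) on counts, with filterByExpr (minimum count 10, minimum total 15), TMM scaling and 1 quasi-likelihood model of 4 groups over all 12 libraries. The contrasts were TG against WT at each time and averaged, ZT14 against ZT2 in each genotype, and the interaction. A call is a Benjamini-Hochberg adjusted p below 0.05 over all 15244 genes, and intervals are at the 95% level. Deposited TPM, a per-length unit made by the authors, served only to set levels of different genes side by side, and deposited RPKM, also made by the authors, only as a check of that. The procedure was tested on simulated data. There DESeq2, used only as an alternative, exceeded the nominal share of false calls. The spread of the simulated counts came from edgeR estimates, so the tools were not compared on equal terms. Between libraries of the same group the chi-square per degree of freedom was 9.53 to 88.9, beyond counting noise. Motifs were searched on both strands of the RefSeq promoters.

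Values in every library are given for the called genes, the 3 genes with the smallest p in each genotype contrast and some others chosen after their values were seen, and at most 3 genes per wider list were named. The genes and lists were chosen with earlier results of these data known. The alternatives tried were DESeq2 1.42.0, RLE size factors, scaling by library size, voom in limma 3.58.1, no filter beyond 1 read, 1 CPM in 3 samples, unique, exon or intron reads alone, the libraries of a contrast alone, a replicate block, and libraries left out.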

Additional observations from a re-analysis of the deposited data

How the results depend on the processing

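The time differences of Crot, Acot3 and Plin2 in TG, of Crat, Crot, Etfdh, Acot3 and Acot4 in WT, and of Acox2 in TG were called whichever of the 12 libraries was omitted. The counts of genes called ran over those fits from 5 to 9 for time in WT, 6 to 9 for time in TG and 0 to 1 for the averaged genotype contrast, and were 0 for genotype at each time and for the interaction. At ZT2, DESeq2 and the fit with no filter beyond 1 read each called 2 genes between genotypes, and DESeq2 called 1 in the interaction, with the shares over all genes in those fits given above. The averaged genotype count was 0 in exon reads, in intron reads, with a replicate block and without both libraries that stood apart. For time in TG, 5 genes were called in intron reads, 5 with the libraries of the contrast alone and 5 without both libraries that stood apart, and for time in WT 3 were called in intron reads. The cause was not tested. Among the genes and contrasts followed through the alternatives, signs turned in intron reads for Crot between genotypes (0.40 at ZT2 and 0.01 averaged). They also turned for Cpt1a and Hadhb between genotypes at ZT14 (-0.29 and -0.04) and for Acaa1a in time (-0.06 in WT and -0.40 in TG). The same held for Plin2 in time in WT (0.08), Cpt1a in time in TG (-0.84) and the interaction of Cpt1a (-0.29). This list is not complete. The time differences of Acadl, for example, were 0.16 in WT and 0.21 in TG in total reads, and -0.42 and -0.52 in intron reads.

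The labels number the libraries 1 to 3 in each group. Deviations of same-numbered libraries correlated between -0.253 and 0.154 over 12 pairs, so the numbers were not taken to pair the libraries. With the replicate block the averaged call of Crat had an edgeR adjusted p of 0.114 and the WT time call of Acaa1a one of 0.0537. With 3 libraries a group, small differences lie within the intervals given, and low genes such as Acot2 and Acot3 have the widest ones.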
